A study of Mus musculus with 12 samples.

Results

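The coagulation and complement factors described here are 36 genes that the liver expresses for export to the plasma, or that act beside those proteins: 22 of coagulation and 14 of complement. They were chosen by name from a fixed list, and each gene is represented by its probe of highest mean signal among the probes whose RefSeq record belongs to it. All 36 were found among the 20279 gene symbols on the arrays, with 46 probes in all. Livers of male *db*/*db* mice, homozygous for the *Lepr*db mutation of the leptin receptor on the BKS background and obese and diabetic for that reason, were labelled as 8 weeks old. Both arms of every comparison carried that mutation. Treated mice received MgH2, a powder that releases molecular hydrogen (H2) in the stomach, by gavage once a day for 1, 3 or 7 days, with Mg(OH)2 as the control, or drank H2-water for 14 days, with the same water degassed as the control. The labels give 0.9 mg/kg of MgH2 and 0.8 mM of H2. The paper's methods name other doses of MgH2, while its legend for plasma triglycerides after 1, 3 and 7 days also gives 0.9 mg/kg. Each of the 12 two-color arrays was hybridised with liver RNA pooled from 3 treated mice, in Cy5, and from 3 controls, in Cy3, with 3 arrays in each of the 4 groups. No dyes were swapped, so a dye effect of a probe cannot be told apart from an effect of H2. The values are log2 ratios of treated over control signal. Values after ± are limma standard errors of a group mean or of a difference between group means. Their spread is estimated from all 12 arrays in 1 fit, so they do not measure the spread of 1 group alone. A gene is called where its adjusted p, over all probes tested, is under 0.05.

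Blood coagulation is a chain of serine proteases, made by hepatocytes as inactive zymogens, that ends with thrombin cutting fibrinogen into fibrin. Anticoagulants such as antithrombin and protein C stop the chain, and plasmin later dissolves the clot. Complement is a related protease chain. It is started by C1q on antibodies, by mannose-binding lectins on sugars or by the alternative pathway, converges on the cleavage of C3, and ends in the membrane attack complex of C5b to C9. Hepatocytes secrete most of these proteins, several of them as acute phase proteins under interleukin-6, while C1q comes mainly from macrophages.

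Between 51.8% and 56.5% of the spots were above background in both channels, and no spot was saturated on any array. On every array both channels of the members exceeded background, except for *Fgb*, whose spot was marked as an outlier on 1 array of 14 days, which leaves 21 of 22 coagulation genes tested there. Whether control pools of the same number were shared among the MgH2 groups is not stated in the labels. Over 18411 probes, deviations of the control channel from its group mean correlated between same-numbered arrays of 1, 3 and 7 days with r from 0.32 to 0.67 over 9 pairs, and between other numbers with r from −0.49 to 0.09 over 18 pairs. In the treated channel, same-numbered arrays gave r from −0.30 to 0.18. The MgH2 comparisons may therefore share control RNA and are not taken as repeats of each other below. In liver RNA, fewer cells of a type and less RNA per cell cannot be told apart.

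Of the 36 members, 15 were called in at least 1 group, 9 of coagulation and 6 of complement, and 21 in none. The share of all probes called in at least 1 group was not counted, so this total is not read as a result about the members. After 1 day of MgH2, 1 coagulation member was called higher and none of the 14 complement members was called, against 5.15% of all 19670 probes tested called higher and 4.23% lower. At an unadjusted p under 0.05 in limma, 2 complement members passed at that time, against 5142 of all 19670 probes. After 3 days, 1 coagulation member was called higher, 5 were called lower and 4 complement members were called lower, against 12.3% of all probes called higher and 11.1% lower. After 7 days, 1 coagulation member was called higher, 3 were called lower and 3 complement members were called lower, against 15.3% and 14.2% of all probes. After 14 days of H2-water, 2 coagulation members were called higher, 3 were called lower and 1 complement member was called lower, against 4.92% and 3.9% of all probes. The changes were small. The largest group mean of any member, called or not, was 0.75 in size on the log2 scale.

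The coagulation median log2 ratio was −0.01 after 1 day, −0.09 after 3 days, −0.03 after 7 days and −0.06 after 14 days. The complement median was 0.06, −0.08, −0.12 and −0.11 in the same order. Medians over all tested probes were within 0.006 of 0 in every group. The coagulation medians of 1 and 7 days had the opposite sign, 0.03 and 0.01, with normexp background correction and loess. Single arrays spread as widely as these medians. After 7 days, for example, the complement median was −0.21, 0.03 and −0.14 on the 3 arrays.

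**Figure D1:**
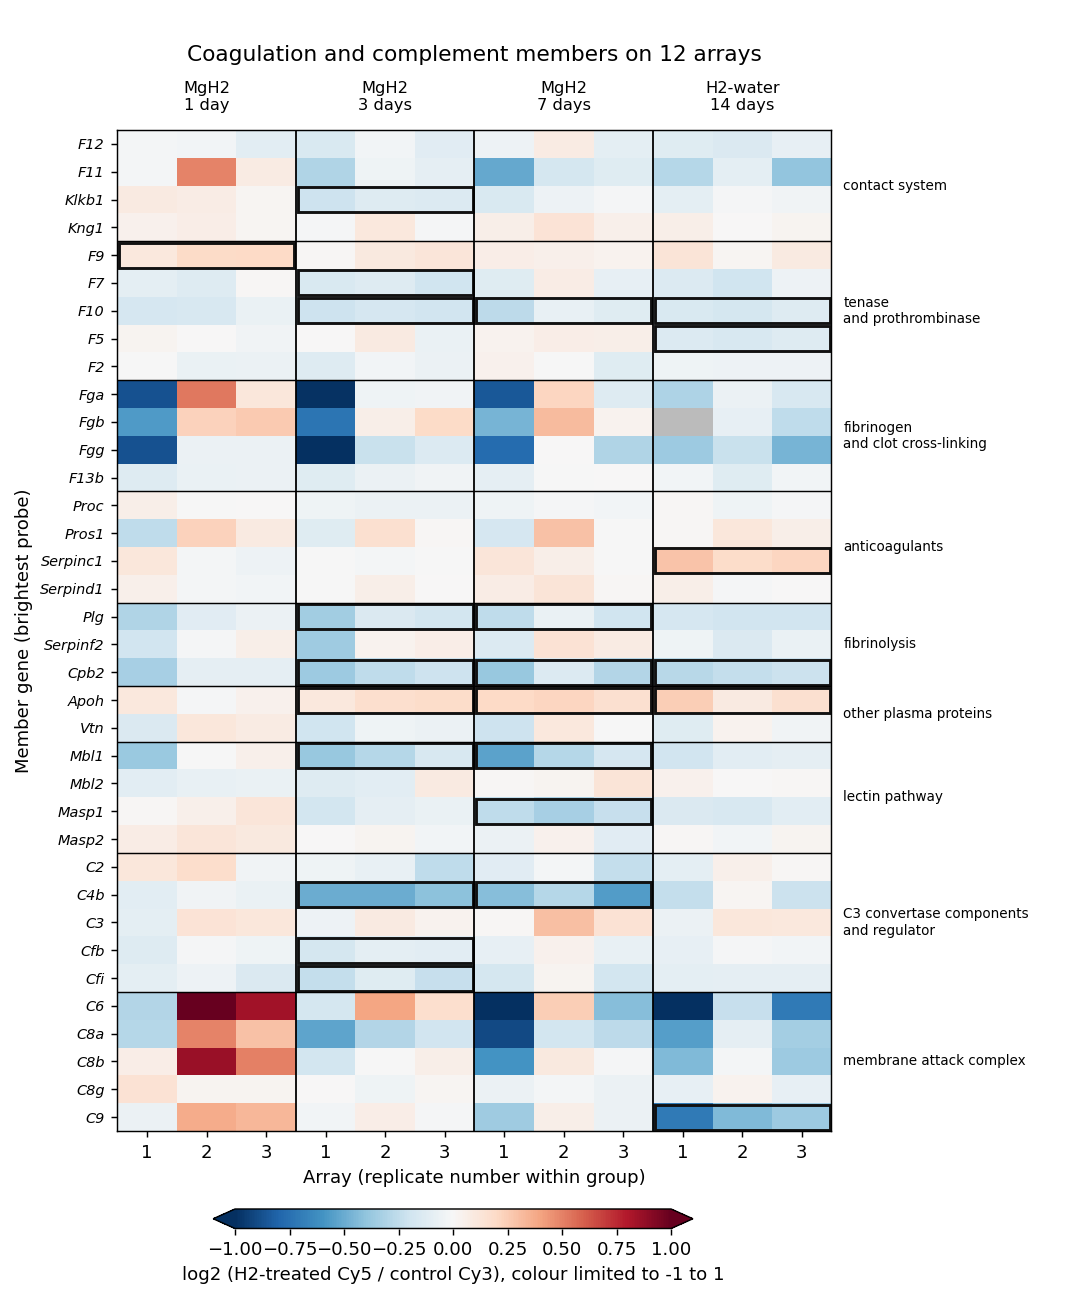
Log2 ratio of H2-treated over control signal for the 36 members (rows, by role) on the 12 arrays (columns, by group and replicate number), with colours limited to −1 to 1, a grey cell where the spot was an outlier, and black boxes around group means with an adjusted p under 0.05. Boxes lie on rows of paler colour, such as *Cpb2* and *Apoh*, and on *C4b*, at −0.56 to −0.28 on the arrays of 3 and 7 days. The strongest colours, in fibrinogen and the membrane attack complex, change from array to array and carry 1 box, that of *C9* at 14 days.

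In the contact system, which starts clotting on negatively charged surfaces, 1 of 4 members was called, at 1 time. *Klkb1*, prekallikrein, the protease that activates factor XII, was −0.21, −0.13 and −0.14 on the arrays of 3 days. Its mean was −0.16 ± 0.04 (adjusted p = 0.0134), and the call was lost without replicate 1, where the mean was −0.14. At the other times it ran from −0.15 to 0.09. *F11*, factor XI, which activates factor IX, had the widest range of the role. It was −0.02, 0.49 and 0.08 after 1 day, −0.30, −0.04 and −0.09 after 3 days, −0.52, −0.17 and −0.12 after 7 days, and −0.29, −0.10 and −0.39 after 14 days. All 9 arrays of the last 3 groups were below 0, and no group mean of *F11* passed the test (adjusted p = 0.0811 after 7 days). *F12*, factor XII, and *Kng1*, the kininogen that carries prekallikrein, had group means from −0.12 to 0.08, none called. A second *Kng1* probe, of another transcript record, was −0.20 after 3 days (adjusted p = 0.0238), so the probes of this gene disagree.

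The proteases and cofactor that build thrombin gave small, even values. *F9*, factor IX, was 0.10, 0.19 and 0.20 after 1 day, a mean of 0.16 ± 0.04 (adjusted p = 0.0218), and was the only member of either system called at that time. The call was lost without replicate 2 or replicate 3, with means of 0.15 each. Its values at later times were all above 0, between 0.01 and 0.13, with no call.

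*F10*, factor X, which cuts prothrombin, was below 0 on all 12 arrays. It was −0.17, −0.16 and −0.06 after 1 day, −0.21, −0.17 and −0.19 after 3 days, −0.26, −0.07 and −0.12 after 7 days, and −0.15, −0.18 and −0.13 after 14 days. The groups overlapped throughout. Means were −0.13 ± 0.04 (adjusted p = 0.0700), −0.19 ± 0.04 (adjusted p = 0.00907), −0.15 ± 0.04 (adjusted p = 0.0184) and −0.15 ± 0.04 (adjusted p = 0.0458), so that *F10* was called at 3, 7 and 14 days. The call of 3 days held without any 1 array. That of 7 days was lost without replicate 1 (mean −0.10) or replicate 3 (mean −0.17), and that of 14 days without any 1 of the 3 arrays (means −0.16 to −0.14). A dimmer second probe of *F10* was −0.08 to −0.17 and not called.

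*F7*, factor VII, which starts clotting with tissue factor, was −0.15, −0.13 and −0.20 after 3 days, a mean of −0.16 ± 0.05 (adjusted p = 0.0335) that was lost without any 1 array (means −0.18 to −0.14). Its second probe gave −0.15 (adjusted p = 0.0294). *F5*, factor V, the cofactor of factor X, was −0.14, −0.16 and −0.13 after 14 days of H2-water, below all 9 arrays of MgH2, which lay between −0.07 and 0.09. Its mean was −0.14 ± 0.03 (adjusted p = 0.0297), and the call was lost without any 1 array (means −0.15 to −0.14). A second *F5* probe was −0.03 in that group (adjusted p = 0.726) and does not show the change. *F2*, prothrombin, was not called at any time, with group means from −0.07 to −0.03.

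Fibrinogen, the clot protein itself, was the most uneven group of coagulation, with standard errors from 0.21 to 0.28 for its 3 chains. None of *Fga*, *Fgb* and *Fgg*, which encode its alpha, beta and gamma chains, was called, although *Fgg* had the largest coagulation means. *Fgg* was −0.87, −0.06 and −0.06 after 1 day, −1.09, −0.22 and −0.13 after 3 days, −0.77, 0.00 and −0.30 after 7 days, and −0.37, −0.22 and −0.46 after 14 days. Its means were −0.33, −0.48, −0.36 and −0.35, each ± 0.21, with adjusted p from 0.126 to 0.361. *Fga* was −0.87, 0.53 and 0.11 after 1 day, −0.98, −0.05 and −0.03 after 3 days, −0.85, 0.21 and −0.13 after 7 days, and −0.31, −0.06 and −0.16 after 14 days. Its means after 1, 3 and 14 days were −0.08, −0.35 and −0.18. A dimmer second *Fga* probe gave −0.21, −0.34 and −0.38 at these times, with no call, and was not tested at 7 days. *Fgb* was −0.57, 0.23 and 0.26 after 1 day, −0.73, 0.06 and 0.19 after 3 days and −0.46, 0.31 and 0.04 after 7 days. On the 3 MgH2 arrays numbered 1, all 3 chains were at −0.46 or below, and on the other 6 they were at −0.30 or above. *F13b*, the carrier subunit of the fibrin cross-linking factor XIII, was −0.13 to 0.00 on all arrays and was not called.

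Read by channel, the low fibrinogen ratios of replicate 1 went with a high control signal. For *Fga* and *Fgg* the treated pool of replicate 1 was also the lowest of each MgH2 group. The control pools of replicate 1 are called control pool 1 here, without knowing whether they were the same RNA at each time. As log2 signal relative to the 75th percentile of its channel, *Fgg* in control pool 1 was 9.49, 9.60 and 9.37 after 1, 3 and 7 days, against 8.78 to 9.06 in control pools 2 and 3. In the treated pools it was 8.53 to 8.80, with replicate 1 at 8.63, 8.53 and 8.61. *Fga* in treated pools was 4.79, 4.58 and 4.77 in replicate 1, against 4.85 to 5.32 in the other replicates of MgH2. For *Fgb* the treated pool of replicate 1 was the lowest after 1 and 7 days and not after 3 days. In the control channel *Fga* and *Fgb* had the same pattern as *Fgg*, with control pool 1 above every other control pool of MgH2. Most, not all, genes of the acute phase list had the same order. In control pool 1, 15 of 19 were at the highest of the 3 control pools at 1, 3 and 7 days alike, against 16.4% of 18411 probes, while *Hamp*, hepcidin, was at the lowest. *Saa1*, serum amyloid A1, stood at 8.43, 8.44 and 8.44 in control pool 1, against 5.98 to 6.46 in control pool 2 and 7.32 to 7.47 in control pool 3, and *Orm2*, orosomucoid 2, at 7.10, 7.01 and 7.08 against 6.72 to 6.95. Whether control pool 1 held mice with an acute phase response was not tested.

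**Figure D2:**
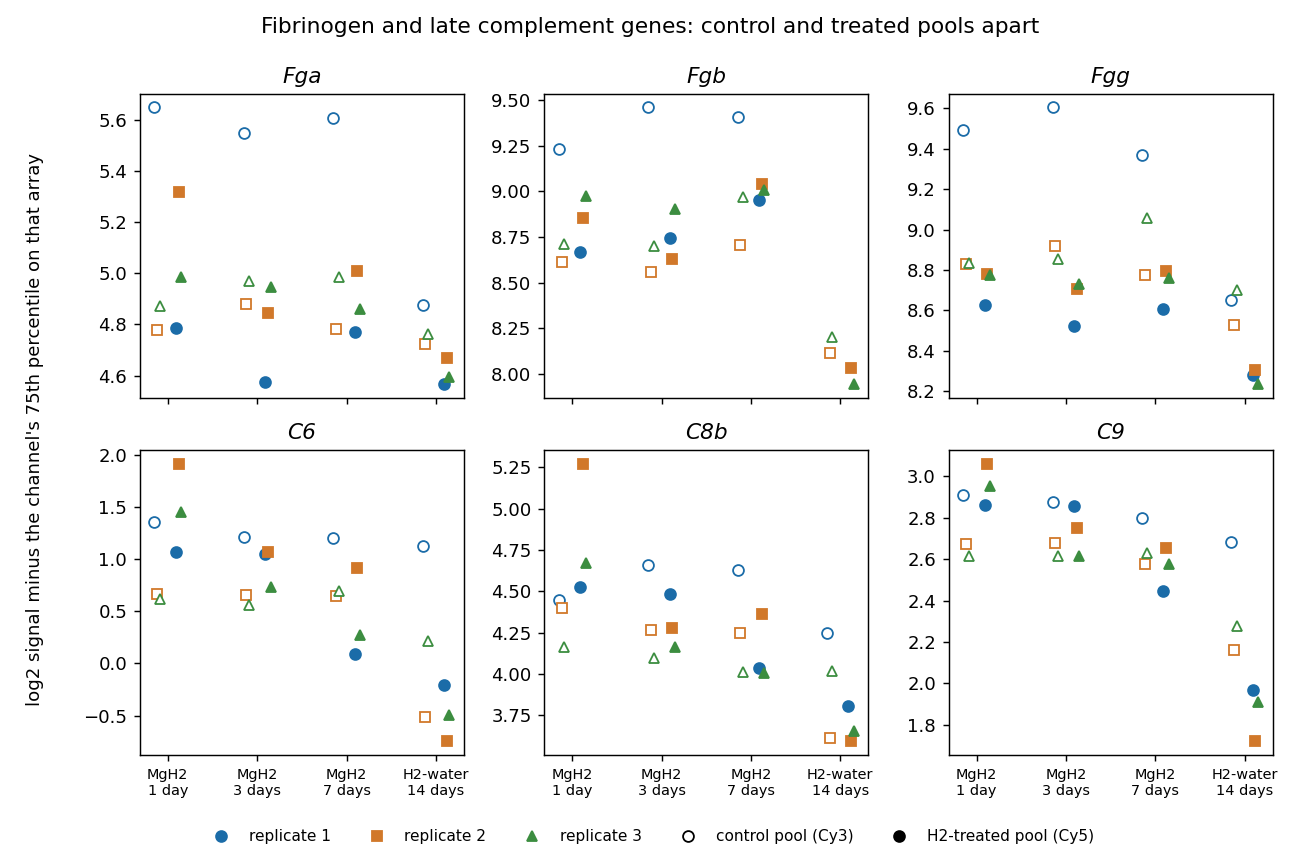
Log2 signal of 6 members relative to the 75th percentile of the channel on that array (vertical axis) in control pools (open symbols, Cy3) and H2-treated pools (filled symbols, Cy5), by group, with colour and shape for the replicate number. Fibrinogen in control pool 1 (open blue circles) lay above the other control pools at 1, 3 and 7 days, and *C6* in treated pools fell from 1.07 to 1.91 after 1 day to 0.09 to 0.91 after 7 days, while its control pools stayed at 0.56 to 1.36 under MgH2.

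The fibrinogen chains were each lowest on replicate 1 in every MgH2 group. For that reason the 250 bases before their start sites are shown from RefSeq (GRCm38.p6), on the strand of the gene. Capitals mark matches, on either strand, to a STAT-type palindrome (TTCNNNGAA), a motif of interleukin-6 signalling, or to a C/EBP core (TTGCNNAA).
*Fga*, chr3:83025903-83026152, plus strand: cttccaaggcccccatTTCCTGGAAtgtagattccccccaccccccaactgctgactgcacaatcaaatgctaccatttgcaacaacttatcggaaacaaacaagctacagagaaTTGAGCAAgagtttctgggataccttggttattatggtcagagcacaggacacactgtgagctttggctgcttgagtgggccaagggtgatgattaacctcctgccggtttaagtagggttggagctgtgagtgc
*Fgb*, chr3:83049864-83050113, minus strand: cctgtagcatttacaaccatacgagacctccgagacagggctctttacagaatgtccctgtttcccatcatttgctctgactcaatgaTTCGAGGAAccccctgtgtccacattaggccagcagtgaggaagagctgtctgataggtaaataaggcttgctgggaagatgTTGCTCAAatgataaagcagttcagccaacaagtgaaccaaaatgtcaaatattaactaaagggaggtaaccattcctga
*Fgg*, chr3:83007474-83007723, plus strand: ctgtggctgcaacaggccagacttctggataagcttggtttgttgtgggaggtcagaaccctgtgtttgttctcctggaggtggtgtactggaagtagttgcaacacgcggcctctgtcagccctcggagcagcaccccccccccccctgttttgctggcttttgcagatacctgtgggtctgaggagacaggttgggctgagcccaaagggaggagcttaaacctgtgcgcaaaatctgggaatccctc
*Fga* and *Fgb* each hold both motifs in this window and *Fgg* holds neither. Of all 32851 promoter windows of that length, 7.02% hold the palindrome and 9.56% the C/EBP core. Of the 28 members with an entry, 6 and 7 hold them. The background counts windows and the members are counted by gene, so these are not like measures. A match of letters is no evidence of binding.

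Under MgH2 the 4 anticoagulants had group means between −0.05 and 0.07, and none was called. *Serpinc1*, antithrombin, the main inhibitor of thrombin and factor Xa, was 0.29, 0.18 and 0.22 after 14 days of H2-water, above all 9 MgH2 arrays, which lay between −0.05 and 0.12. Its mean was 0.23 ± 0.04 (adjusted p = 0.00934), and the call was lost without replicate 1 (mean 0.20) or replicate 3 (mean 0.23). *Serpind1*, heparin cofactor II, *Proc*, protein C, and *Pros1*, its cofactor protein S, were not called. *Pros1* alone of these varied between pools, from −0.26 to 0.29.

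Fibrinolysis genes were lower in part. *Plg*, plasminogen, the zymogen of plasmin, and *Cpb2*, the carboxypeptidase that removes plasminogen-binding lysines from fibrin and so slows its breakdown, act in opposite directions on a clot, and both were below 0 on all 12 arrays. *Cpb2* was −0.33, −0.09 and −0.09 after 1 day, −0.36, −0.25 and −0.21 after 3 days, −0.38, −0.13 and −0.30 after 7 days, and −0.28, −0.24 and −0.21 after 14 days. Its means of −0.27, −0.27 and −0.24, each ± 0.06, were called at 3, 7 and 14 days (adjusted p = 0.0100, 0.00796 and 0.0330), and that of 1 day, −0.17, was not (adjusted p = 0.100). *Plg* was −0.30, −0.11 and −0.06 after 1 day, −0.35, −0.14 and −0.19 after 3 days, −0.26, −0.06 and −0.20 after 7 days, and −0.16, −0.19 and −0.19 after 14 days. It was called at 3 days (−0.23 ± 0.06, adjusted p = 0.0179) and 7 days (−0.17 ± 0.06, adjusted p = 0.0415). Replicate 1 was the lowest array of both genes in each MgH2 group. Without it, *Cpb2* was −0.23 after 3 days and −0.21 after 7 days, *Plg* was −0.17 and −0.13, and none of the 4 was called. The calls of *Cpb2* at 7 days and of *Plg* at both times were also lost without replicate 3 (−0.26, −0.25 and −0.16), and that of *Cpb2* at 14 days without any 1 array (−0.26 to −0.23). *Serpinf2*, the inhibitor of plasmin, had means from −0.08 to 0.03 and was not called.

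*Apoh*, beta-2-glycoprotein I, which binds anionic phospholipid, was the member called higher most often. It was 0.10, −0.01 and 0.05 after 1 day, 0.10, 0.17 and 0.18 after 3 days, 0.20, 0.21 and 0.16 after 7 days, and 0.25, 0.09 and 0.16 after 14 days. Means were 0.04, 0.15, 0.19 and 0.17, each ± 0.04, called at 3 days (adjusted p = 0.0191), 7 days (adjusted p = 0.00473) and 14 days (adjusted p = 0.0267). The call of 7 days held without any 1 array. That of 3 days was lost without replicate 2 or 3 (0.14 each) and that of 14 days without any 1 array (0.12 to 0.20). *Vtn*, vitronectin, varied from −0.21 to 0.11 with no call.

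**Figure D3:**
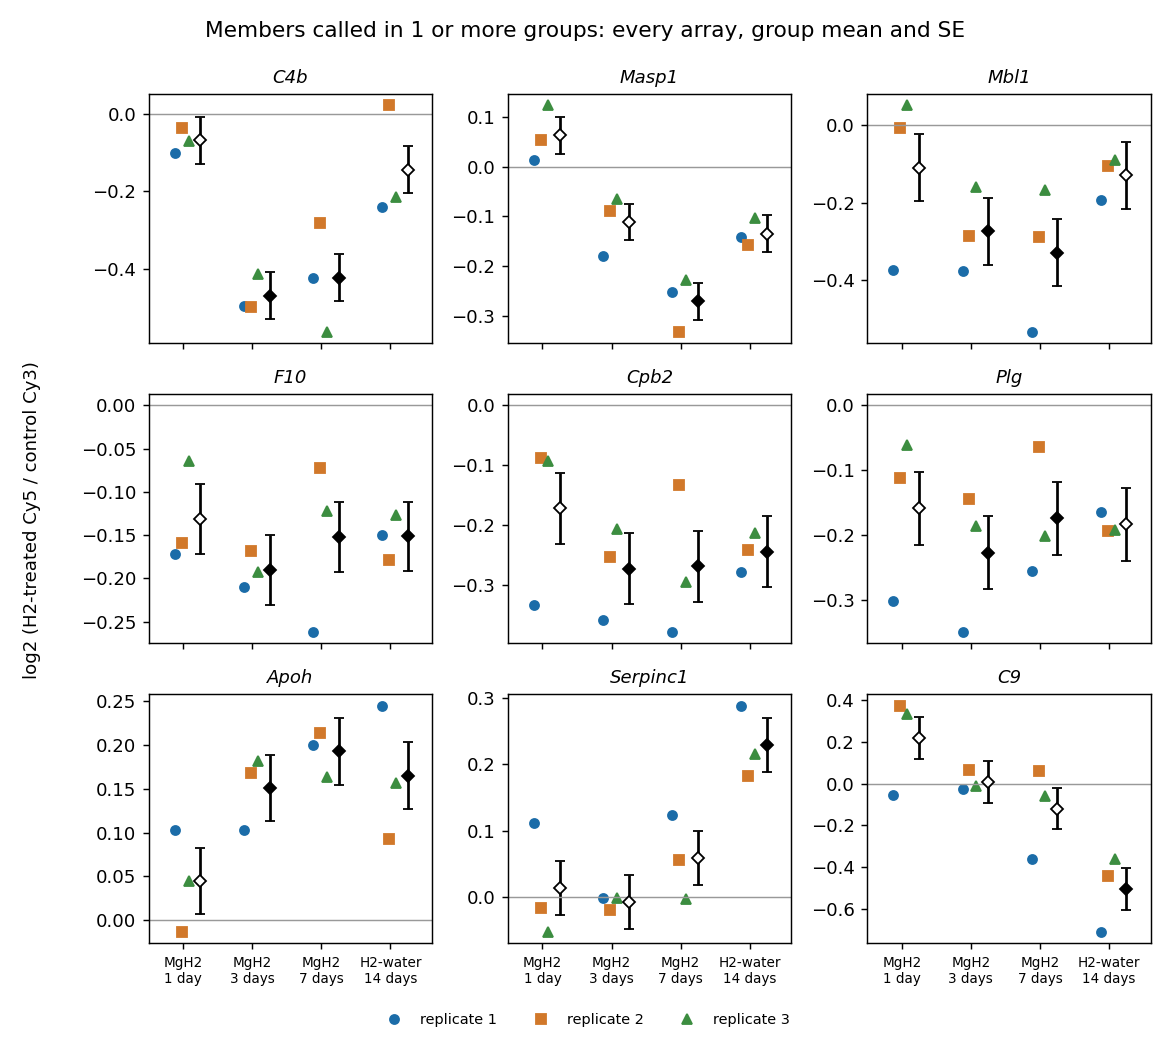
Log2 ratio of treated over control signal (vertical axis) for 9 members called in at least 1 group, with each array as a coloured point by replicate number and the group mean and standard error as a diamond, filled where the adjusted p is under 0.05. *C4b* was at −0.28 or below on the 6 arrays of 3 and 7 days and at −0.10 or above on those of 1 day. At 14 days *Serpinc1* lay above every MgH2 array, while *C9* reached −0.36, as did 1 array of 7 days. Neither gene was called in limma between 14 days of H2-water and 7 days of MgH2 (adjusted p = 0.101 and 0.121).

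In the lectin pathway, which senses sugars on microbes and damaged cells, *Masp1* and *Mbl1* were lower and their partners *Masp2* and *Mbl2* were not called. *Masp1*, the protease that starts the pathway, was 0.01, 0.05 and 0.12 after 1 day, −0.18, −0.09 and −0.07 after 3 days, −0.25, −0.33 and −0.23 after 7 days, and −0.14, −0.16 and −0.10 after 14 days. The arrays of 1, 3 and 7 days did not overlap. The mean of 7 days, −0.27 ± 0.04, was called (adjusted p = 0.000795), a fold of 0.829, and held without any 1 array. Those of 3 days (−0.11, adjusted p = 0.0543) and 14 days (−0.13, adjusted p = 0.0512) missed the threshold. *Mbl1*, mannose-binding lectin A, was −0.37, −0.01 and 0.05 after 1 day, −0.38, −0.29 and −0.16 after 3 days, −0.53, −0.29 and −0.17 after 7 days, and −0.19, −0.11 and −0.09 after 14 days. Replicate 1 was the lowest in every group. Means of −0.27 and −0.33, each ± 0.09, were called at 3 and 7 days (adjusted p = 0.0444 and 0.0178). The first was lost without any 1 array (−0.33 to −0.22) and the second without replicate 1 (−0.23) or replicate 2 (−0.35). *Masp2* was 0.07, 0.12 and 0.10 after 1 day (mean 0.10, adjusted p = 0.119), and its later means were −0.04 to 0.00. *Mbl2*, mannose-binding lectin C, had means from −0.08 to 0.05.

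Among the components of the C3 convertases, the enzymes that cleave C3, *C4b* showed the largest called change under MgH2. *C4b*, complement C4, was −0.10, −0.04 and −0.07 after 1 day, −0.49, −0.50 and −0.41 after 3 days, −0.42, −0.28 and −0.56 after 7 days, and −0.24, 0.02 and −0.22 after 14 days. Its mean was −0.47 ± 0.06 after 3 days (adjusted p = 0.00086) and −0.42 ± 0.06 after 7 days (adjusted p = 0.000928), a fold of 0.723 and 0.746, and both calls held without any 1 array. The means of 1 day (−0.07) and 14 days (−0.14) were not called. The mouse has a near-identical gene, *C4a*, and the probe may read both. *Cfb*, factor B of the alternative pathway, was −0.18, −0.10 and −0.10 after 3 days (−0.13 ± 0.04, adjusted p = 0.0375), and *Cfi*, the protease that inactivates C3b and C4b, was −0.24, −0.12 and −0.23 (−0.20 ± 0.05, adjusted p = 0.0123). The call of *Cfb* was lost without any 1 array (−0.14 to −0.10), and that of *Cfi* without replicate 1 or 3 (−0.18 each). *C2*, the partner of C4 in the classical convertase, and *C3* itself were not called, with means of −0.12 to 0.08 and 0.02 to 0.15. A dimmer *C3* probe was −0.21 to −0.01, so that the direction for *C3* depends on the probe.

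In the membrane attack complex, *C6* had the largest standard errors of all members and *C8a*, *C8b* and *C9* also varied between arrays, while *C8g*, the lipocalin subunit of C8, was at −0.08 to 0.15 throughout. A dimmer second probe of *C8g* was −0.13 after 7 days (adjusted p = 0.0335), where the brighter one was −0.04, so the probes of this gene disagree. *C9*, which polymerises into the pore, was −0.06, 0.37 and 0.34 after 1 day, −0.03, 0.06 and −0.01 after 3 days, −0.36, 0.06 and −0.06 after 7 days, and −0.71, −0.44 and −0.36 after 14 days. The mean of 14 days, −0.50 ± 0.10, was the only call of the complex among the brightest probes (adjusted p = 0.0151), a fold of 0.705. It was lost without any 1 array (−0.58 to −0.40). *C6* was −0.29, 1.24 and 0.84 after 1 day, −0.18, 0.39 and 0.17 after 3 days, −1.12, 0.25 and −0.42 after 7 days, and −1.32, −0.23 and −0.71 after 14 days, with means of 0.59, 0.13, −0.43 and −0.75 and standard errors of 0.31 to 0.32. *C8a* was −0.28, 0.49 and 0.29, then −0.53, −0.29 and −0.19, then −0.90, −0.18 and −0.26, and −0.55, −0.09 and −0.34 in the same order of groups. *C8b* was 0.07, 0.86 and 0.50, then −0.18, 0.00 and 0.06, then −0.60, 0.10 and −0.01, and −0.44, −0.02 and −0.36. Replicate 1 was the lowest array of *C6*, *C8a* and *C8b* in every group, and of *C9* too. None of the means of *C6*, *C8a* and *C8b* was called, with adjusted p from 0.0656 upwards.

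The channels of these genes were read in the same way as those of fibrinogen. Control pool 1 was again the highest control pool, with *C6* at 1.36, 1.21 and 1.21 after 1, 3 and 7 days against 0.56 to 0.69 in the other 6 control pools. Their treated pools also moved between times. *C6* there was 1.07, 1.91 and 1.46 after 1 day, 1.04, 1.07 and 0.74 after 3 days, and 0.09, 0.91 and 0.28 after 7 days. *C8b* in treated pools was 4.52, 5.27 and 4.67 after 1 day and 4.03, 4.36 and 4.01 after 7 days.

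The promoter windows of members of this complex that were lowest on replicate 1 in every group are shown in the same way. They are from RefSeq (GRCm38.p6), with capitals for the same motifs. *C6* is not shown.
*C8a*, chr4:104876399-104876648, minus strand: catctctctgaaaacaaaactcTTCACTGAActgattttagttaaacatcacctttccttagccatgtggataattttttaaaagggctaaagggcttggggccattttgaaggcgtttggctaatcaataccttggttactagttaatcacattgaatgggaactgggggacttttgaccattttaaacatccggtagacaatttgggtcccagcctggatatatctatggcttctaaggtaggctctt
*C8b*, chr4:104766067-104766316, plus strand: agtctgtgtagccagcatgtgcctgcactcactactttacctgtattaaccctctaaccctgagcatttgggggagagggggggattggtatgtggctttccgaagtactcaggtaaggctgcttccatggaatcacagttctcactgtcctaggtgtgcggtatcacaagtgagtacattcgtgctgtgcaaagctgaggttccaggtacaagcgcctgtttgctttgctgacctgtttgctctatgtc
*C9*, chr15:6445096-6445345, plus strand: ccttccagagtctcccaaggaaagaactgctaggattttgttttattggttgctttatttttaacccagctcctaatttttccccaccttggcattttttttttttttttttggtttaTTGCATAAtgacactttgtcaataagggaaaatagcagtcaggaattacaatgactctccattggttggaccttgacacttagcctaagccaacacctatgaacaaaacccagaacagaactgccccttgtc
*C8a* holds the palindrome, *C9* the C/EBP core and *C8b* neither.

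The difference between times was tested for MgH2. Ratio deviations of same-numbered MgH2 arrays correlated with r from 0.37 to 0.65 over 9 pairs, so the fits with the replicate number as a block are given beside the unblocked ones. Between 3 days and 1 day no member was called without or with the block, against 0.0208% and 2.39% of 19223 probes. At an unadjusted p under 0.05 in limma, 5 and 11 of the 36 members passed, against 2962 and 4524 of those probes. Between 7 and 3 days no member was called in either fit, nor was any other probe (0% of 19100). There 1 member had an unadjusted p under 0.05 in each fit, against 904 probes without the block and 1528 with it. Between 7 days and 1 day, *Masp1* and *C4b* were called without the block, against 6.95% of 19166 probes. With the block 8 members were called, all with the lower ratio at 7 days, against 16.4% of probes in either direction, 7 of them among the 14 complement genes.

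*Masp1* differed by −0.33 ± 0.05 without the block (adjusted p = 0.0132) and kept its call with it (adjusted p = 0.00601). *C4b* differed by −0.35 ± 0.08 (adjusted p = 0.0362) and kept its call too (adjusted p = 0.0314). The arrays of both genes did not overlap between the times. With the block, *C6* differed by −1.02 ± 0.28 (adjusted p = 0.0417), *C8b* by −0.65 ± 0.14 (adjusted p = 0.0222), *C8a* by −0.62 ± 0.13 (adjusted p = 0.0217), *F11* by −0.46 ± 0.10 (adjusted p = 0.0236), *Mbl1* by −0.22 ± 0.06 (adjusted p = 0.0388) and *C2* by −0.21 ± 0.05 (adjusted p = 0.0296). Each of these 8 genes was lower at 7 days in all 3 same-numbered pairs. In the treated channel alone, an alternative added after the data were seen, *C6* differed by −1.05, *C8b* by −0.69, *C8a* by −0.60, *C9* by −0.40, *F11* by −0.45 and *Masp1* by −0.38, all called. *Apoh* and *Serpind1* were called there too, higher by 0.23 and 0.17. *C4b*, at −0.21 (adjusted p = 0.159), *Mbl1* and *C2*, all called with the block, were not called there. The 8 of 36 members called in that channel stand against 19.5% of all probes. Between 3 days and 1 day that channel gave 1 call, *Masp1* at −0.22, against 3.98% of probes. No slide held arrays of both times. With slide as a term, tied through the arrays of 3 days, no member was called, nor was any other probe (0% of 19166, with 3 members and 1422 probes at an unadjusted p under 0.05 in limma), with −0.46 for *Masp1* (adjusted p = 0.648) and −0.32 for *C4b* (adjusted p = 0.670). On slide 1, *Masp1* and *C4b* on the array of 3 days were 0.24 and 0.43 below the mean of the 3 arrays of 1 day. Without any 1 array *Masp1* stayed called, with differences from −0.36 to −0.30. *C4b* lost its call without any 1 array of 1 day or without replicate 1 or 3 of 7 days (−0.37 to −0.28).

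**Figure D4:**
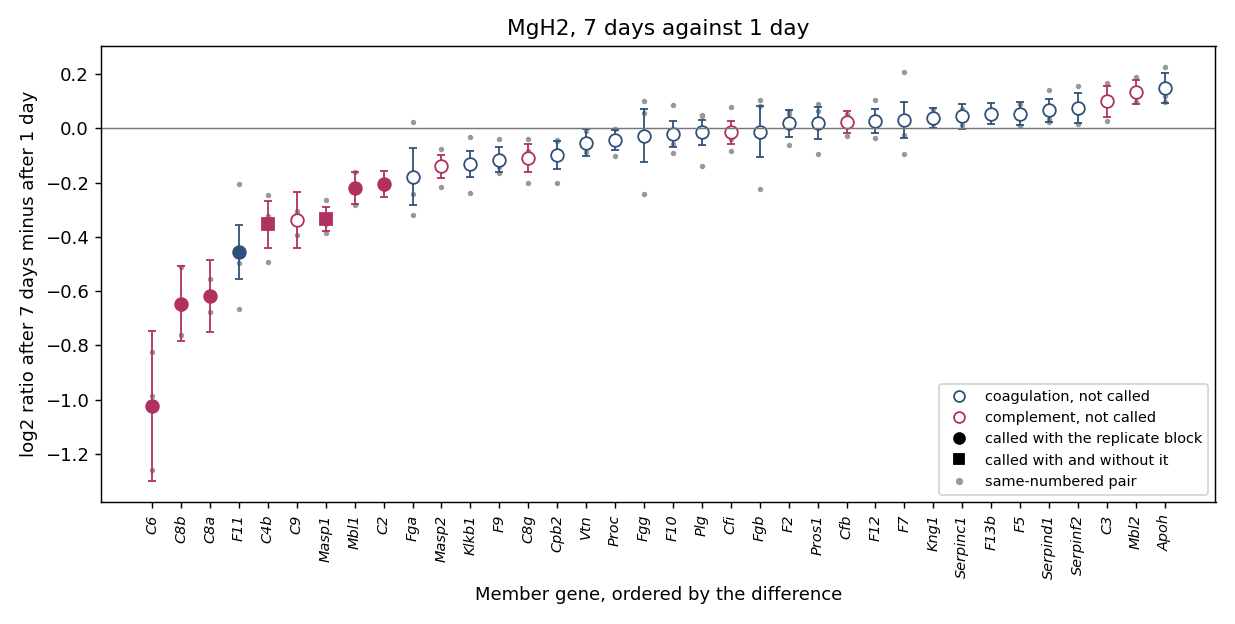
Difference of the log2 ratio between 7 days and 1 day of MgH2 (vertical axis) for the 36 members, ordered by size, as the mean with its standard error from the fit with the replicate block, and the same-numbered pairs as grey dots. Filled symbols mark calls with that block and squares the 2 genes also called without it, *Masp1* and *C4b*, and the 8 called genes all lie on the left, below 0.

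H2-water and MgH2 also differed in route, control, slide and software version, which cannot be told apart from the agent. Between 14 days of H2-water and 7 days of MgH2, 1 member was called, against 6.61% of 18689 probes. *F5* was lower by −0.20 ± 0.05 after H2-water (adjusted p = 0.0403). The call was lost without any 1 of the 6 arrays, with differences from −0.21 to −0.19.

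Other genes of the same systems were read from lists that do not hold the members. Of all probes, 4.23%, 11.1%, 14.2% and 3.9% were called lower after 1, 3, 7 and 14 days. The shares called higher were 5.15%, 12.3%, 15.3% and 4.92%. These shares stand beside the counts of every list below. Of 24 further complement genes tested, 2 were called lower and 1 higher after 1 day, 11 lower and none higher after 3 days, 13 lower and none higher after 7 days, and 1 lower after 14 days. Their medians were −0.02, −0.18, −0.19 and −0.04. *Serping1*, the C1 inhibitor, was −0.31, −0.16 and −0.22 after 1 day, −0.39, −0.32 and −0.42 after 3 days, and −0.42, −0.19 and −0.38 after 7 days, with all 3 means called. *C1qa* and *C1qb*, chains of the recognition molecule C1q, were −0.53 to −0.46 and −0.51 to −0.39 on the arrays of 3 days and −0.56 to −0.43 and −0.57 to −0.42 on those of 7 days, against −0.35 to −0.14 and −0.39 to −0.07 after 1 day. Means of *C1qa* were −0.49 ± 0.07 after 3 days (adjusted p = 0.00111) and −0.48 ± 0.07 after 7 days (adjusted p = 0.000804). *C1s1*, a protease of C1, was −0.30 after 3 days and −0.22 after 7 days, both called. *C1ra*, its partner, was 0.28 ± 0.05 after 1 day (adjusted p = 0.00792).

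Some Kupffer cell and leukocyte markers, and some stellate cell markers, were called lower at the same times as the C1q genes. Of 12 Kupffer cell and leukocyte markers tested, 4 were called lower and 1 higher after 3 days and 6 were called lower after 7 days. Of all probes, 11.1% and 14.2% were called lower at these times, and 12.3% and 15.3% higher. *Clec4f*, a Kupffer cell lectin, was −0.36 ± 0.08 and −0.45 ± 0.08 at these times, and *Vsig4*, a macrophage receptor for C3b, was −0.36 ± 0.07 and −0.47 ± 0.07. *S100a8* and *S100a9*, abundant in neutrophils, were −0.68 and −1.13 after 3 days and −0.97 and −1.36 after 7 days, all called. The list's summed signal, as a log2 ratio, ran from −0.24 to 0.08 over the arrays of 1 day, −0.31 to −0.20 over those of 3 days, −0.40 to −0.28 over those of 7 days and −0.14 to 0.15 over those of 14 days. Only *Ms4a1* of its measured markers was above background on no array. Of the stellate cell and fibroblast markers, 4 of 9 were called lower after 3 days and 4 of 10 after 7 days, with medians of −0.26 and −0.15, and none after 1 or 14 days. *Col3a1*, a fibrillar collagen chain, was −0.54 ± 0.07 and −0.42 ± 0.07 at 3 and 7 days. Summed, these markers ran from −0.33 to −0.09 and from −0.24 to −0.02 over the arrays of these times. The part of either list in the C1q result was not tested. The same sum over 14 hepatocyte markers ran from 0.05 to 0.14 over the 9 MgH2 arrays, with 3 called higher and 2 lower after 3 days and 6 higher and 3 lower after 7 days.

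**Figure D5:**
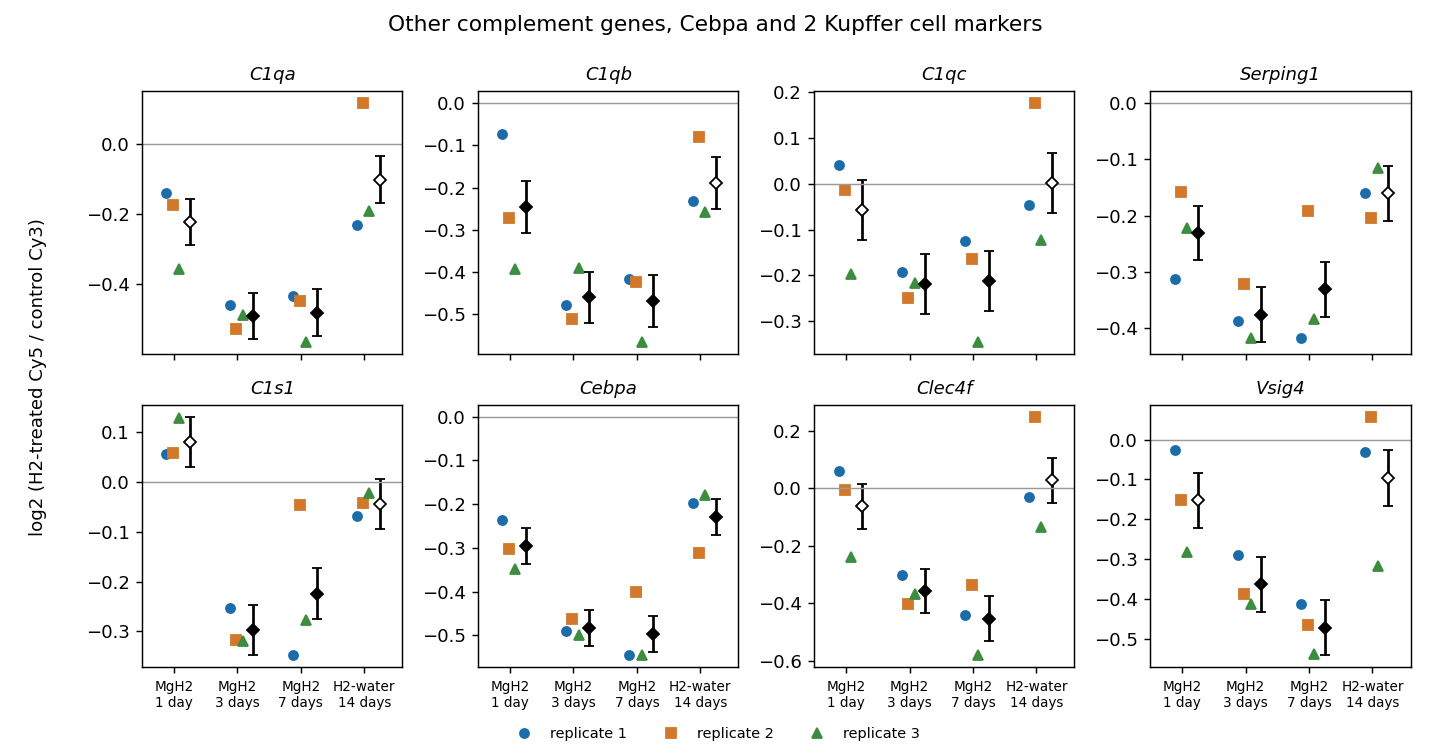
Log2 ratio of treated over control signal (vertical axis) on each array by group, with the group mean and standard error as a diamond that is filled where the adjusted p is under 0.05, for 5 further complement genes, *Cebpa* and the Kupffer cell markers *Clec4f* and *Vsig4*. *C1qa*, *C1qb*, *Clec4f* and *Vsig4* were all lowest after 3 and 7 days, and *Cebpa* was below 0 on all 12 arrays.

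Of the further coagulation and fibrinolysis genes, 21 to 23 were tested in a group. The calls were 1 higher after 1 day, 1 higher and 3 lower after 3 days, 1 higher and 6 lower after 7 days, and 1 lower after 14 days. Of all probes, 11.1% and 14.2% were called lower after 3 and 7 days, and the 3 lower calls of 3 days are near that share. *Thbd*, thrombomodulin, the endothelial receptor through which thrombin activates protein C, was −0.54, −0.14 and −0.10 after 1 day, 0.22, 0.61 and 0.66 after 3 days, and 0.97, 0.67 and 1.21 after 7 days. Its mean rose to 0.50 ± 0.12 after 3 days (adjusted p = 0.0163) and 0.95 ± 0.12 after 7 days (adjusted p = 0.000538), the largest called change of this list. *Lman1*, the cargo receptor that carries factors V and VIII out of the endoplasmic reticulum, was −0.26 after 3 days, −0.28 after 7 days and −0.22 after 14 days, all ± 0.05 and called. *Adamts13*, the protease of von Willebrand factor, was 0.35 after 1 day and −0.39 after 7 days, both ± 0.08 and called.

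Acute phase genes, which share regulation with fibrinogen, had medians of −0.09, −0.42, −0.24 and −0.17. Of 19 tested, none was called after 1 day. At an unadjusted p under 0.05 in limma 3 passed then, against 5142 of all 19670 probes. After 3 days 7 were called lower and after 7 days 3, against 11.1% and 14.2% of all probes. The 3 calls of 7 days are near that share. *Orm2* was −0.52 ± 0.13 after 3 days and −0.43 ± 0.13 after 7 days. *Saa1* was −2.75, 2.47 and −0.07 after 1 day and −3.74, −2.02 and −2.23 after 3 days, a spread between pools that exceeds its mean changes at 1 day. After 14 days 1 of 18 was called, *Cp*, ceruloplasmin, at −0.27 ± 0.06. Among 14 liver transcription factors, *Cebpa*, which encodes the C/EBP alpha of hepatocytes, was called lower in all 4 groups, at −0.30, −0.48, −0.50 and −0.23, each ± 0.04. *Nr5a2* was lower after 7 days (−0.26 ± 0.06). After 14 days 1 of the list was called higher and 2 lower, *Cebpa* and *Hnf4a* (−0.21 ± 0.05). Whether these changes bear on the members was not tested.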

How the data were processed

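Liver RNA was measured on 12 two-color Agilent arrays (design 026655 per the file headers). Arrays were grouped by the source names of their labels. The authors deposited processed intensity values of both channels, background-subtracted and dye-normalized by Agilent Feature Extraction (10.10.1.1, or 10.7.3.1 for 14 days of H2-water, per the file headers). The deposited table holds the same ratios as log2 values. Their methods divide each array by its total intensity, which leaves ratios unchanged. Raw median intensities were also deposited and served for the normexp alternative, with an offset of 50.

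Log2 ratios of Cy5 over Cy3 were computed without outlier spots and averaged by probe, up to 10 spots each. RefSeq records gave 26755 of 39429 probes a symbol. Promoter windows and their coordinates were taken from RefSeq's table for GRCm38.p6, and no genome was aligned to. The number of arrays limits the precision. Probes above background in both channels on every array compared were tested with limma 3.58.1 in R 4.3.3, with all 12 arrays in 1 fit and Benjamini-Hochberg adjustment at 0.05. The fit was tested on simulated data. Nothing states that pools were made of separate litters or cages, so p-values measure the spread between pools. Same-numbered MgH2 arrays were taken as paired from their correlation, not from the labels. Alternatives covered scaling, normexp and loess, the deposited table, dim probes, outlier spots, averaging of probes, arrays in the fit, slide, replicate block, each replicate left out and the methods' t-test.

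Members and lists were chosen with earlier results of these data known. Per-array values are given for members called in any group and, in each group, for the 2 members of each system with the largest mean of the same sign on all arrays; of other lists, up to 4 called genes per group. *Fgb*, *C2*, *Saa1*, *Hamp*, *C1qc*, *Cfd*, *Retn* and *Adipoq* fall outside that rule and were chosen after their values were seen. *C7*, *Tf*, *Serpina1b* and *Cd68* had no probe under their symbols. Some other listed genes are not reported here. Tables were written with Python 3.11.15 and pandas 2.3.3. P values in the scanner files come from single arrays and were not used.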

Additional observations from a re-analysis of the deposited data

Results flagged for a closer look

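The difference between 2 groups passed its own test for 3 members. *C4b* (log2 difference −0.35) and *Masp1* (−0.33) were lower after 7 days of MgH2 than after 1 day, and *F5* was lower after 14 days of H2-water than after 7 days of MgH2 (−0.20). Groups of 3 arrays are too small for the test of single outlying arrays.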

How the results depend on the processing

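No called member changed direction under any alternative run. Away from the fits that leave out an array, 225 values of called members kept their call and 94 lost it. *Masp1* and *C4b* at 7 days and *C4b* at 3 days kept their calls in 14 of 15 alternatives each, all but the adjusted t-test of the methods. For each group the counts are given as coagulation, then complement, where both moved.

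Dividing channels by their totals gave 4 calls and a median of −0.048 for coagulation after 1 day, and 5 and 2 complement calls after 7 and 14 days. Normexp with loess gave 4 and 2 calls after 1 day, 6 complement calls after 7 days, 1 coagulation call for 7 days against 1 day and none for 14 days against 7 days, with coagulation medians of 0.028 and −0.020 after 1 and 3 days and a complement median of −0.042 after 14 days. The mean over probes gave 3 coagulation calls after 14 days and 0 for 14 days against 7 days, and median-centred arrays also gave 0 there. Testing all probes, dim ones included, gave 0 coagulation calls after 1 day, 2 and 1 after 3 days, 1 coagulation call after 14 days, and 0 for both contrasts that had calls. Fits of only the arrays compared gave 0 coagulation calls in each group, 1 complement call after 3 days and 0 after 14 days, and 0 for both contrasts. The methods' t-test gave 4 and 1, 2 coagulation, 2 coagulation, and 2 and 0 calls unadjusted after 1, 3, 7 and 14 days, and 0 members in every group after Benjamini-Hochberg. As a random block, slide gave 4 and 1 calls after 1 day and 2 complement calls after 14 days. As a fixed term it gave 0 complement calls for 7 days against 1 day, and it could not be fitted for 14 days against 7 days. The replicate number as a random block gave 2 complement calls after 14 days. As a fixed block it gave 1 and 7 calls for 7 days against 1 day. For 14 days against 7 days, where the numbers do not pair the arrays (r of 0.29, 0.23 and 0.03), it gave 2 and 2 calls. It moved no other count by more than 1.5 times. The treated channel alone, added after the data were seen, gave 1 complement call for 3 days against 1 day, and 3 and 5 calls for 7 days against 1 day.

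Leaving out 1 array gave 0 to 1, 2 to 4, 1 to 4 and 0 to 1 coagulation calls after 1, 3, 7 and 14 days, and 1 to 2, 2 to 3 and 0 complement calls after 3, 7 and 14 days. It gave 1 to 2 complement calls for 7 days against 1 day and 0 coagulation calls for 14 days against 7 days. Coagulation medians were −0.039 to −0.0081, −0.131 to −0.045, −0.077 to 0.013 and −0.088 to −0.069 after 1, 3, 7 and 14 days, where that of 7 days turned positive without replicate 1. Complement medians were 0.024 to 0.079, −0.105 to −0.044, −0.195 to −0.057 and −0.108 to −0.092. All probes lost calls in these fits too, from 1803 to between 448 and 573 after 14 days, since fewer arrays were tested. With 3 arrays a group, changes near the spread between pools were not detectable.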

Other observations

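*Cfd*, which encodes factor D, the protease of the alternative pathway that adipocytes secrete, varied more between arrays than any other of the listed complement genes with a probe. It was 2.61, −0.96 and −0.72 after 1 day, −0.91, −3.57 and −2.09 after 3 days, −0.90, −3.44 and −2.92 after 7 days, and 2.57, 0.38 and 1.03 after 14 days. Its mean after 7 days, −2.42 ± 0.76, was called (adjusted p = 0.0379). *Retn*, resistin, another product of mouse adipocytes, was 1.29, −0.40 and −0.64 after 1 day, 0.04, −1.22 and −1.66 after 3 days, 0.11, −1.76 and −2.11 after 7 days, and 0.89, 0.02 and −0.53 after 14 days. *Adipoq*, adiponectin, was above background on none of the 12 arrays. Replicate 1 was the highest array of *Cfd* and *Retn* in every group. Read by channel, *Cfd* in control pool 1 was −2.27, −2.34 and −2.35 after 1, 3 and 7 days, against 0.10 to 0.80 in control pools 2 and 3. *Retn* was −2.20, −2.51 and −2.44 there, against −0.81 to −0.29. Among treated pools of *Cfd*, replicate 1 was the highest after 1 day and the lowest after 3 and 7 days. For *Retn* it was the highest after 1 and 7 days and the lowest after 3 days. Whether fat tissue in the samples had a part in this was not tested.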
